A study of Mus musculus with 8 samples.

Results

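TGF-β signals through a pair of serine/threonine kinase receptors and the Smad proteins, and 10 genes of this machinery were followed in hair follicle stem cells (HFSCs) and epidermal stem cells (EpdSCs) of Msx2-KO mice. The genes were taken by symbol, and all 10 were found among the 23861 genes of the HFSC table and among the 16231 genes of the EpdSC table. They were the receptors Tgfbr1, Tgfbr2 and Tgfbr3, the signal-carrying Smads Smad2, Smad3 and Smad4, the feedback inhibitor Smad7, the co-repressors Skil and Tgif1, and Tmeff1. Bulk RNA-seq had been done on cells sorted from telogen dorsal skin, with 2 libraries from wild-type (WT) C57BL/6J mice and 2 labelled as coming from Msx2-KO mice (the KO-labelled libraries) for each cell type, 8 in all. HFSCs were CD34+ CD49f+ Sca-1- cells and EpdSCs, called epidermal progenitor cells in the labels, were CD34- CD49f+ Sca-1+ cells. The Msx2-KO mice carried a neomycin resistance cassette driven by pMC1 in the Msx2 locus in all their cells, so that no cell type was targeted. By the labels the WT mice of the HFSC libraries were 2 months old, and the mice of the other 6 libraries were 6 months old. Genotype and age therefore cannot be told apart in HFSCs. The submitters' names of the libraries also split by genotype, by prefix in HFSCs and by number in EpdSCs. What these names stand for is not given. Genotype therefore cannot be told apart from any difference between these series of libraries, in either cell type. The labels do not say whether the libraries of a group came from different mice, so the p-values measure the spread between these libraries, which may be technical.

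TGF-β ligands bind Tgfbr2, which then phosphorylates and activates Tgfbr1. Active Tgfbr1 phosphorylates Smad2 and Smad3, and these enter the nucleus with Smad4, the common partner of the TGF-β and BMP branches. In the hair follicle, TGF-β2 from the dermal papilla is known to help start the growth phase by acting on stem cells of the hair germ, where Tmeff1 is a target of the pathway.

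Sequence upstream of the start site was printed for Tgfbr1, Tgfbr2 and Tgif1, the members with an unadjusted p under 0.05 in either cell type for which RefSeq promoters of GRCm38.p6 were at hand. The capitals mark CAGAC or its reverse complement GTCTG, the letters of the Smad binding element, read on both strands. RefSeq entries matched 5 of the 10 members, Tgfbr1, Tgfbr2, Smad3, Tgif1 and Tmeff1. Each stretch is the 250 bases before the first start site of the gene, on the strand of the gene, 5′ to 3′.
Tgfbr1, chr4:47352972-47353221, plus strand: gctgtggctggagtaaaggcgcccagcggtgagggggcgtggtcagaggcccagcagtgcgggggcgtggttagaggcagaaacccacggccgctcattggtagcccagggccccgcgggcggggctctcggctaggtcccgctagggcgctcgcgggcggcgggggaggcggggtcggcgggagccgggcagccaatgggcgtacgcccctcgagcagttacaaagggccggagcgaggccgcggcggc
Tgfbr2, chr9:116175364-116175613, minus strand: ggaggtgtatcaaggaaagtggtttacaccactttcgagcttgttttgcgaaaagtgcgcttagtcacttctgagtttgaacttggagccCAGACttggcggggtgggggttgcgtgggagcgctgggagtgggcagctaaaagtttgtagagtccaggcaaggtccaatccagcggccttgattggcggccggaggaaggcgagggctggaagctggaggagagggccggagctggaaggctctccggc
Tgif1, chr17:70853533-70853782, minus strand: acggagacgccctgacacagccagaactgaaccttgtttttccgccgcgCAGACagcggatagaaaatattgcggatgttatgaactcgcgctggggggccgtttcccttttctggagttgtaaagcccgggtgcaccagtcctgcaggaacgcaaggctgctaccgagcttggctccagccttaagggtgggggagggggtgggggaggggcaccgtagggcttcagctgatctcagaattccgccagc
CAGAC was found 0 times in the Tgfbr1 stretch, 1 time in that of Tgfbr2 and 1 time in that of Tgif1, and 42.2% of the 32851 promoter stretches of the same length in the RefSeq table held it. A second letter string bound by Smads, GGCGC, was found 3 times in the Tgfbr1 stretch, 6 times in that of Tmeff1 and 0 times in those of Tgfbr2, Smad3 and Tgif1, against 32% of all stretches with at least 1 match. TAATTG, a homeodomain motif of the kind Msx proteins bind, was found in none of the 10 stretches of the 5 genes, and in 7.17% of all stretches. GGCGC and TAATTG were also searched on both strands, and no printed stretch held more than 1 of the 3 strings. The last 14 bases of the Tgif1 stretch lie within the gene as GENCODE M21 draws it. The Tgfbr1 stretch had a GC content of 74.8%, against a median of 52.4%. These matches describe letters and do not locate binding.

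The libraries differed in depth and make-up. HFSC libraries held between 3132970 and 11016700 counts, of which mitochondrial ribosomal RNA took 8.94% and 36.3% in WT and 49.4% and 53.2% in the KO-labelled libraries. The HFSC libraries detected 22447 and 19595 genes in WT and 11409 and 14251 under the KO label. EpdSC libraries held an estimated 15213600 to 21092700 counts, with mitochondrial ribosomal RNA at 23.5% and 16.4% in WT and 0.073% and 6.18% in the KO-labelled libraries. Msx2 itself had 53 and 7 counts in WT HFSCs against 40 and 18, and normalized values of 58.5 and 85.4 in WT EpdSCs against 150.3 and 22.2, so its RNA did not separate the genotypes. The marker genes of HFSCs had counts in every HFSC library. Their sum was 21612 and 18482 per 1000000 nuclear protein-coding counts in WT against 11447 and 12647 in the KO-labelled libraries. In normalized counts Tcf7l1 was higher in both KO-labelled libraries, while the other markers of that list were lower in both. The marker genes of interfollicular basal epidermis had counts in every EpdSC library. Cd34 was absent under that symbol from the genes given for EpdSCs. Ly6a, which encodes Sca-1, was absent from those given for HFSCs, so neither could be analysed there.

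In HFSCs, Tgfbr1 and Tgfbr2 differed in opposite directions. Tgfbr1, the type I receptor kinase on chromosome 4 (GRCm38, 47353222 to 47414931), had 144.2 and 145.9 normalized counts in WT against 11.3 and 27.2 in the KO-labelled libraries. Behind these values stood 177 and 74 counts in WT and 17 and 21 counts in the others. Both KO-labelled libraries were far below both WT libraries, and the groups did not overlap. The log2 fold change was -2.92 ± 0.83 (SE), a 7.56-fold lower level, with an adjusted p of 0.171 by edgeR. Tgfbr2, the type II receptor that binds the ligand first (chromosome 9, 116084293 to 116175360), had 89.6 and 82.8 normalized counts in WT against 172.1 and 246.1 in the KO-labelled libraries. Here both were above both WT libraries, with a log2 fold change of 1.27 ± 0.45 (SE) and an adjusted p of 0.259. Tgfbr3, the co-receptor betaglycan that presents TGF-β2 to Tgfbr2 (chromosome 5, 107106570 to 107289629), had 224.7 and 137.6 normalized counts in WT against 144.2 and 189.1 in the KO-labelled libraries. These groups overlapped, and the log2 fold change was -0.13 with an adjusted p of 0.955. None of the 3 receptors passed the test, which asked for an adjusted p under 0.05 and a fold change over 2.

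The Smads that carry the signal were lower in both HFSC KO-labelled libraries than in either WT library, but those libraries lay far apart. Smad2 (chromosome 18, 76241580 to 76310963) had 217.5 and 193.3 normalized counts in WT against 160.2 and 10.4 in the KO-labelled libraries, the latter 15.5-fold apart. Smad3 (chromosome 9, 63646767 to 63757994) had 79.8 and 88.8 normalized counts in WT against 0 and 44.0 in the KO-labelled libraries. The count of 0 allows a level of up to 1.99 normalized counts, the value of 3 counts in that library, with counting error alone considered. KO-labelled replicate 1 was the low library for Smad3 and replicate 2 the low library for Smad2, so the 2 receptor-regulated Smads were not low in the same library. Smad4 (chromosome 18, 73639009 to 73703780), the partner shared with BMP signaling, had 215.02 and 207.1 normalized counts in WT against 136.9 and 67.3 in the KO-labelled libraries. The log2 fold changes were -1.26 ± 1.27 (SE) for Smad2, -1.95 ± 2.27 for Smad3 and -1.04 ± 0.53 for Smad4, with adjusted p values of 0.764, 0.809 and 0.446 by edgeR.

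The inhibitors and co-repressors overlapped between the genotypes in HFSCs. Smad7 (chromosome 18, 75367529 to 75395935), which blocks Tgfbr1 and is itself induced by the pathway, had 289.1 and 254.4 normalized counts in WT against 209.3 and 291.4 in the KO-labelled libraries. Skil (chromosome 3, 31095058 to 31122577), which encodes the Smad co-repressor SnoN, had 257.4 and 374.7 normalized counts in WT against 261.8 and 217.6 in the others. Tgif1 (chromosome 17, 70844205 to 70853546), a homeodomain co-repressor of Smad2, had 268.8 and 179.5 normalized counts in WT against 249.9 and 152.8 in the others. For each of the 3 genes the groups overlapped, and the log2 fold changes were -0.12, -0.40 and -0.16 with adjusted p values of 0.937, 0.710 and 0.939 by edgeR. Tmeff1 (chromosome 4, 48585174 to 48663131), a transmembrane protein with follistatin-like domains, had 23.6 and 33.5 normalized counts in WT against 0 and 47.9 in the KO-labelled libraries. These 2 libraries enclosed both WT values, and the log2 fold change of -0.26 had a SE of 2.42 and an adjusted p of 0.982.

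**Figure D1:**
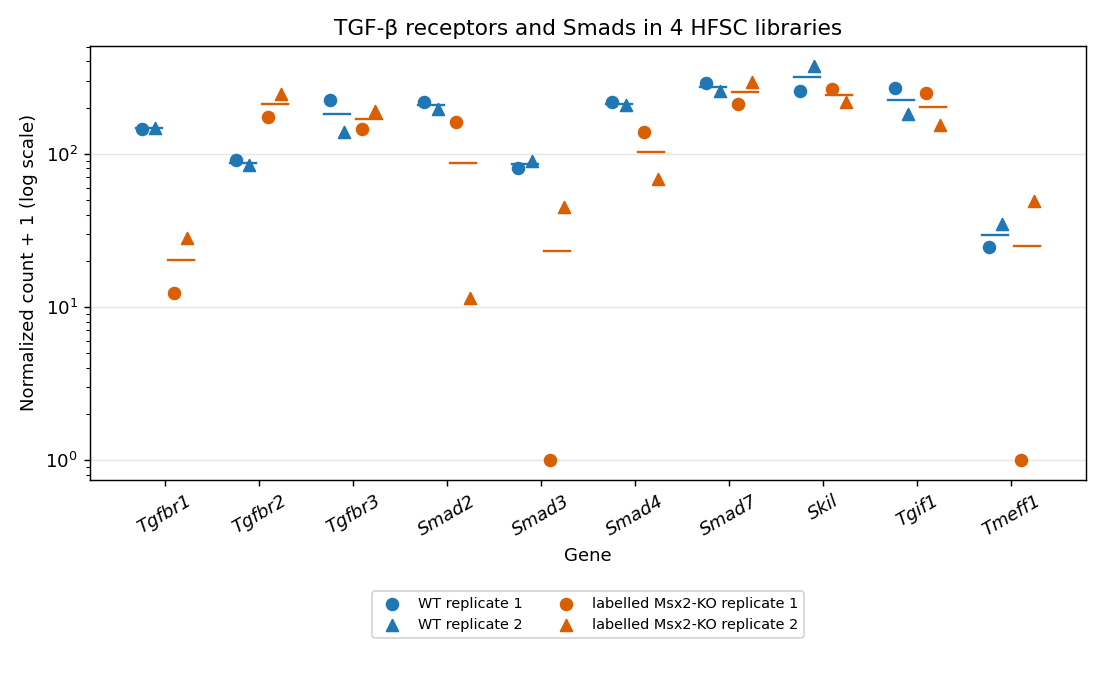
Normalized counts of the 10 genes in the 4 HFSC libraries, plotted as the value plus 1 on a log axis, with a horizontal bar at the mean of each genotype. Tgfbr1 lay at 11.3 and 27.2 in the KO-labelled libraries against 144.2 and 145.9 in WT, and Tgfbr2 lay higher in both of them, while Smad2, Smad3 and Tmeff1 were spread widely between them.

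Across the 10 genes in HFSCs, 0 were called by edgeR, where 0% of the 14422 genes tested were called, and DESeq2 and limma-trend also called 0 of the 10. An unadjusted p under 0.05 was found for 2 members, or 20.0%, near the 18.1% of all genes. They were Tgfbr1 lower, as in 12.8% of all genes, and Tgfbr2 higher, as in 5.3%. The groups did not overlap for 5 of the 10, against 51.1% of all genes, with 1 above (17.5% of all genes) and 4 below (33.5%). The median log2 fold change was -0.33 over the members and -0.14 over all genes, and 1 member had a positive value under TMM scaling, where 45.4% of all genes did. Tgfbr3, Smad7 and Tgif1 turned positive when scaled to the nuclear protein-coding counts. The calls moved when a KO-labelled library was left out. Without replicate 1 edgeR called 4 members, Tgfbr1, Smad2 and Smad4 lower and Tgfbr2 higher, and without replicate 2 it called 3, Tgfbr1, Smad3 and Tmeff1, all lower. The remaining library of an arm was then assumed to vary like the WT pair, and of all genes 36.6% were called without replicate 1 and 59.1% without replicate 2. In WT HFSCs the markers of suprabasal epidermis summed to 439 and 450 counts per 1000000 nuclear protein-coding counts. In the KO-labelled libraries they summed to 2033 and 8133. A count was found for 7 or 8 of the 8 markers in each library. In normalized counts Sbsn overlapped between the groups and Lor had a count only in KO-labelled replicate 2. The other suprabasal markers were higher in both KO-labelled libraries. The summed markers of the sebaceous gland were 141 and 174 in WT against 2883 and 2404 in the others, with 5, 4, 5 and 5 of 5 markers at a count. The part of these markers, and of the lower sum of the HFSC markers, in the values of the receptors and Smads was not tested, and in bulk libraries fewer cells of a type and less RNA per cell cannot be told apart.

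In EpdSCs, where all mice were 6 months old by the labels, Smad4 rose in the KO-labelled libraries. Its normalized values were 759 and 769 in WT against 6526 and 13302 in the KO-labelled libraries. Both of the latter lay far above both WT libraries, which were nearly equal. The log2 fold change was 3.61 ± 0.59 (SE), a 12.2-fold higher level, with an adjusted p of 0.0480 by limma. It was the only one of the 10 genes called, where 9.35% of the 16231 genes were called, 1.57% higher and 7.78% lower. The value lay close to the threshold. Without WT replicate 1 or WT replicate 2 the adjusted p was 0.393 in each case, and without KO-labelled replicate 1 or 2 it was 0.0297 and 0.00981. Over the 9 other settings it ran from 0.0365 to 0.109, with log2 fold changes from 2.89 to 3.85. It was above 0.05 under 6 of them, among which were a pseudocount of 0.1, library totals, nuclear protein-coding totals, mitochondrial and ribosomal RNA genes left out and edgeR on estimated counts. The nearest protein-coding genes on either side of Smad4, looked up after the values of Smad4 were seen, were not called. Mex3c, 46434 bases away, had a log2 fold change of 0.74 with an adjusted p of 0.440, and Elac1, 31258 bases away, one of 0.10 with an adjusted p of 0.904. GENCODE M21 places a processed pseudogene, AC132418.2, within Smad4 on the other strand, and the use of strand in counting is not given in the sources used here.

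Smad2 and Smad3, the Smads that the receptor phosphorylates, were not called in EpdSCs. Smad2 had normalized values of 747 and 700.0 in WT against 379 and 427 in the KO-labelled libraries. Both were below both WT libraries, with a log2 fold change of -0.84 ± 0.46 (SE) and an adjusted p of 0.257 by limma. Smad3 had 309 and 315 in WT against 334 and 549 in the KO-labelled libraries, a log2 fold change of 0.46 with an adjusted p of 0.549. The groups of Smad3 did not overlap on the authors' scale, but overlapped when scaled to nuclear protein-coding counts, where its log2 fold change was -0.26.

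The receptors had positive log2 fold changes in EpdSCs and none was called. Tgfbr1 had normalized values of 212 and 258 in WT against 1310.3 and 315 in the KO-labelled libraries. The difference rested mainly on KO-labelled replicate 1, since replicate 2 was little above the WT libraries. Tgfbr1 had a log2 fold change of 1.45 ± 0.88 (SE) with an adjusted p of 0.291 by limma, and 0.43 without that library. Tgfbr2 had 1135 and 1441 in WT against 3564 and 2728 in the KO-labelled libraries, with both libraries above both WT libraries and a log2 fold change of 1.29 ± 0.49 (adjusted p = 0.161). Tgfbr3 had 1075 and 1588 in WT against 6047 and 1494 in the KO-labelled libraries, and replicate 2 lay within the WT range, with a log2 fold change of 1.20 and an adjusted p of 0.369. Without KO-labelled replicate 2, limma called Tgfbr1, Tgfbr2 and Tgfbr3 beside Smad4 and Tgif1, 5 members in all, where 63.9% of all genes were called. Without replicate 1 it called Smad4 and Tgif1, where 37.6% of all genes were called.

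Tgif1 had the second largest difference in EpdSCs. Its normalized values were 440 and 542 in WT against 5803 and 1775 in the KO-labelled libraries, and both of these were well above both WT libraries. The log2 fold change was 2.72 ± 0.78 (SE), with an adjusted p of 0.106 by limma. Smad7 had 204 and 203 in WT against 143 and 395 in the KO-labelled libraries, on either side of the WT pair, with a log2 fold change of 0.22 (adjusted p = 0.828). Skil had 520 and 598 in WT against 446 and 233 in the others, with both below WT and a log2 fold change of -0.79 (adjusted p = 0.363). Tmeff1 was near the bottom of the table, with 17.3 and 8.54 in WT against 28.0 and 20.9 in the KO-labelled libraries, where 3 counts are worth between 2.02 and 3.82 units. Its log2 fold change was 0.93, with an adjusted p of 0.308.

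**Figure D2:**
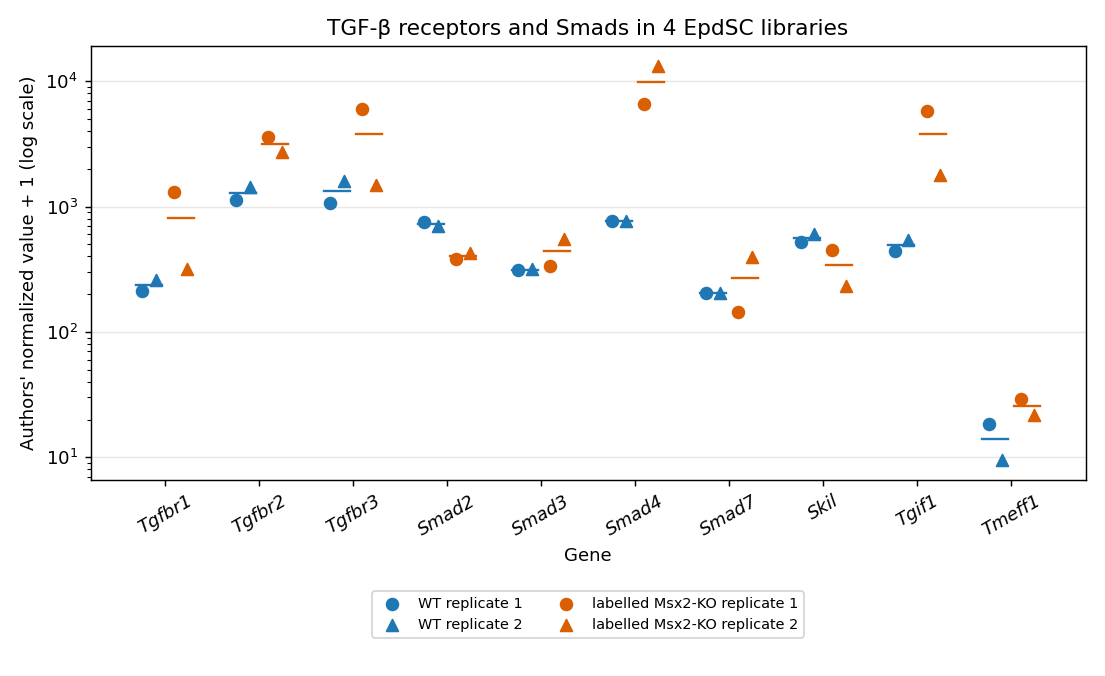
Normalized values of the 10 genes in the 4 EpdSC libraries, as deposited by the authors, plotted as the value plus 1 on a log axis, with a horizontal bar at the mean of each genotype. Smad4 lay at 6526 and 13302 in the KO-labelled libraries against 759 and 769 in WT, and for Tgfbr1 and Tgfbr3 KO-labelled replicate 1 stood above the other 3 libraries.

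Over the 10 genes in EpdSCs, 2 had an unadjusted p under 0.05, Smad4 and Tgif1, both higher, or 20.0%, where 35.3% of all genes did, 12.2% higher and 23.1% lower. The groups did not overlap for 8, against 72.3% of all genes, with 6 above (27.8% of all genes) and 2 below (44.5%). The median log2 fold change was 1.07 over the members and -0.64 over all genes. Positive values were found for 8 members on the authors' scale, where 40.3% of all genes were positive. The scaling bore on these directions. The KO-labelled libraries gave a larger share of their counts to nuclear protein-coding genes, and scaling to that sum moved the median of all genes by -0.68 and the median of the members to 0.37. Smad3 and Smad7 then had negative values, and the groups did not overlap for 5 members, with Tgfbr2, Smad4 and Tgif1 above and Smad2 and Skil below. In WT EpdSCs the markers of suprabasal epidermis summed to 30159 and 21799 counts per 1000000 nuclear protein-coding counts. In the KO-labelled libraries they summed to 4880 and 6754. A count was found for 8, 8, 8 and 7 of the 8 markers. On the authors' scale Krtdap, Lor and Dsg1a were above both WT libraries in KO-labelled replicate 1 and below both in replicate 2. The other suprabasal markers were lower in both. The summed markers of immune cells were 104 and 10.8 in WT against 0.116 and 0.666 in the others, with 8, 7, 1 and 4 of 8 markers at a count. The summed HFSC markers were 9048 and 10914 in WT against 14126 and 18198 in the KO-labelled libraries. Of 8 markers, 7 had a count in WT replicate 1 and 8 in the other 3 libraries. Krt15 was the highest, with normalized values of 79951 and 96241 in WT against 230109 and 177798. Itga6, Postn, Lgr5 and Tcf7l1 were also higher in both KO-labelled libraries, while Lhx2, Sox9 and Nfatc1 overlapped between the groups. The part of all these markers in the values of the receptors and Smads was not tested.

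Set side by side, the cell types shared some directions and not others. Tgfbr2 was higher and Smad2 lower in the KO-labelled libraries of both cell types. The log2 fold changes in HFSCs and EpdSCs were 1.27 and 1.29 for Tgfbr2 and -1.26 and -0.84 for Smad2. Tgfbr1 had values of -2.92 and 1.45, Smad3 of -1.95 and 0.46, and Smad4 of -1.04 and 3.61. Over all settings Tgfbr2 ran from 0.38, under library totals, to 1.50 in HFSCs, and from 0.57 to 1.48 in EpdSCs. Smad2 ran from -4.32 to -0.37 in HFSCs, the latter without KO-labelled replicate 2, and from -1.56 to -0.69 in EpdSCs. The tables were normalized separately, and the difference between the cell types was not tested.

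**Figure D3:**
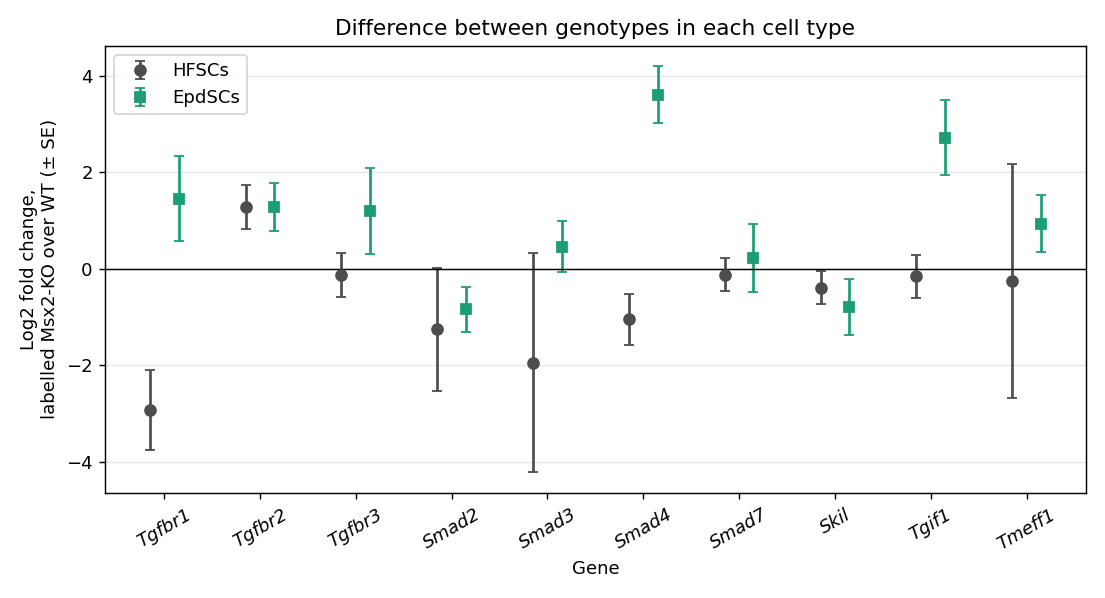
Log2 fold change of each gene, KO-labelled libraries over WT, with its standard error, in HFSCs (circles, edgeR) and EpdSCs (squares, limma on the log2 of the value plus 1). Tgfbr2 lay at 1.27 and 1.29, while Tgfbr1 and Smad4 lay on opposite sides of 0 in the cell types.

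**Figure D4:**
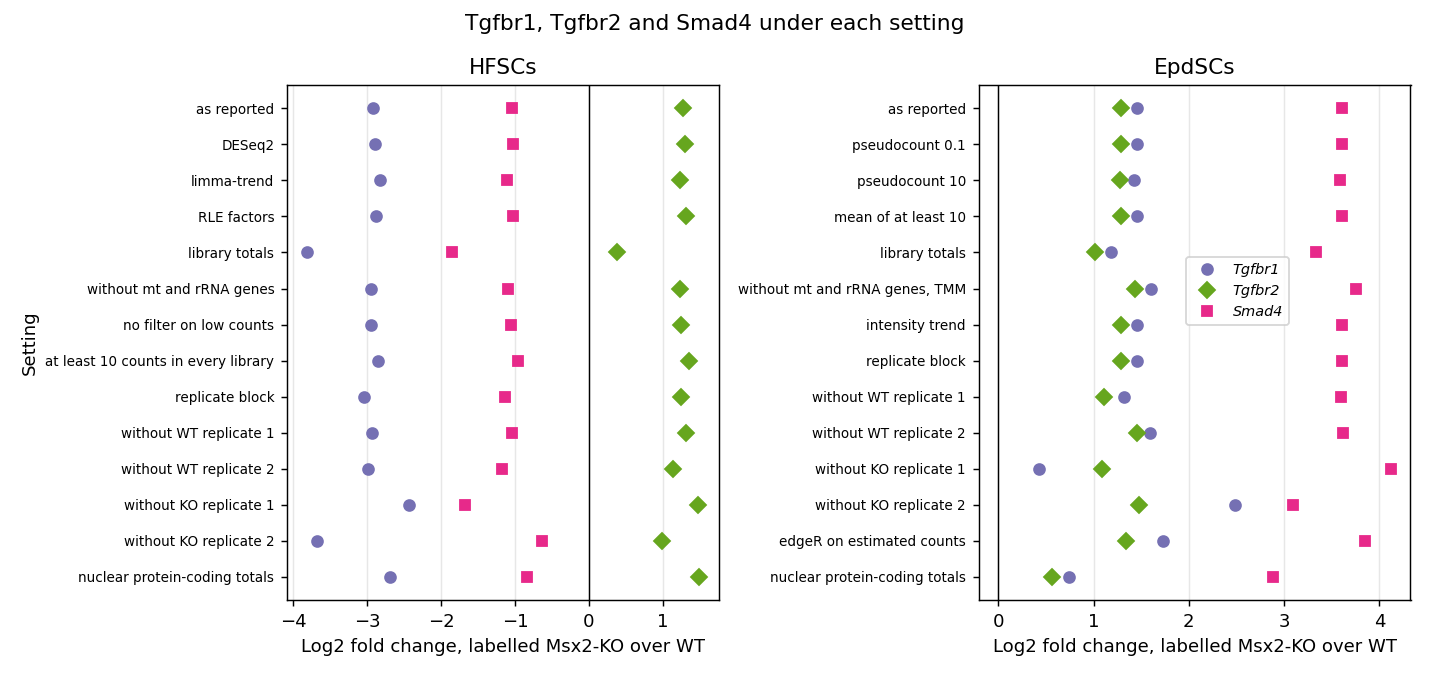
Log2 fold changes of Tgfbr1, Tgfbr2 and Smad4 under each setting tried, KO-labelled libraries over WT, in HFSCs (left) and EpdSCs (right). Smad4 in EpdSCs stayed between 2.89 and 4.12, and Tgfbr1 ran from -3.82 to -2.43 in HFSCs and from 0.43 to 2.48 in EpdSCs. Tgfbr2 ran from 0.38 to 1.50 in HFSCs and from 0.57 to 1.48 in EpdSCs.

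Levels of different genes were compared as counts per kb of exon, per 1000000 nuclear protein-coding counts, a scale made here for both tables. In WT HFSCs the order from high to low was Smad7, Smad4, Tgif1, Skil, Tgfbr3, Smad2, Tgfbr1, Smad3, Tmeff1 and Tgfbr2. Smad7 stood at 21.5 ± 3.36 (SD, n = 2) and Smad4 at 20.3 ± 1.88, against 7.93 ± 0.45 for Tgfbr1 and 3.77 ± 0.46 for Tgfbr2. Of the 9 neighbouring pairs in this order, 6 overlapped between their libraries, and the pairs that stood apart were Smad4 over Tgif1, Tgfbr1 over Smad3 and Smad3 over Tmeff1. In KO-labelled HFSCs, Tgfbr1 had the lowest mean at 1.23 ± 0.74 (SD, n = 2), though Smad3 and Tmeff1 were lower in replicate 1 and Smad2 in replicate 2. Tgfbr2 stood at 10.7 ± 2.89, and 7 of the 9 neighbouring pairs overlapped. Tgfbr1 lay at 8.25 and 7.61 and Tgfbr2 at 4.09 and 3.45 in the WT libraries, and at 0.709 and 1.76 and at 8.62 and 12.7 in the KO-labelled ones. Neither gene was called, and this difference in their order was not tested. In EpdSCs Tgfbr1 lay below Tgfbr2 in all 4 libraries on this scale.

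In WT EpdSCs the order was Smad4, Tgfbr3, Tgfbr2, Tgif1, Smad2, Skil, Smad3, Smad7, Tgfbr1 and Tmeff1. Per kb, Smad4 stood at 20.7 ± 0.20 (SD, n = 2), Tgfbr3 at 20.5 ± 5.59 and Tgfbr2 at 15.8 ± 2.66, while Tgfbr1 stood at 3.62 ± 0.50. In KO-labelled EpdSCs, Smad4 stood at 79.9 and 294.9, above all other members, and Tgif1 came next at 46.9 and 26.0. Smad2 stood at 8.29 ± 0.38 (SD, n = 2) in WT and 2.98 ± 1.44 in the KO-labelled libraries. Of the 9 neighbouring pairs, 4 overlapped in WT EpdSCs, and 6 in the KO-labelled ones.

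**Figure D5:**
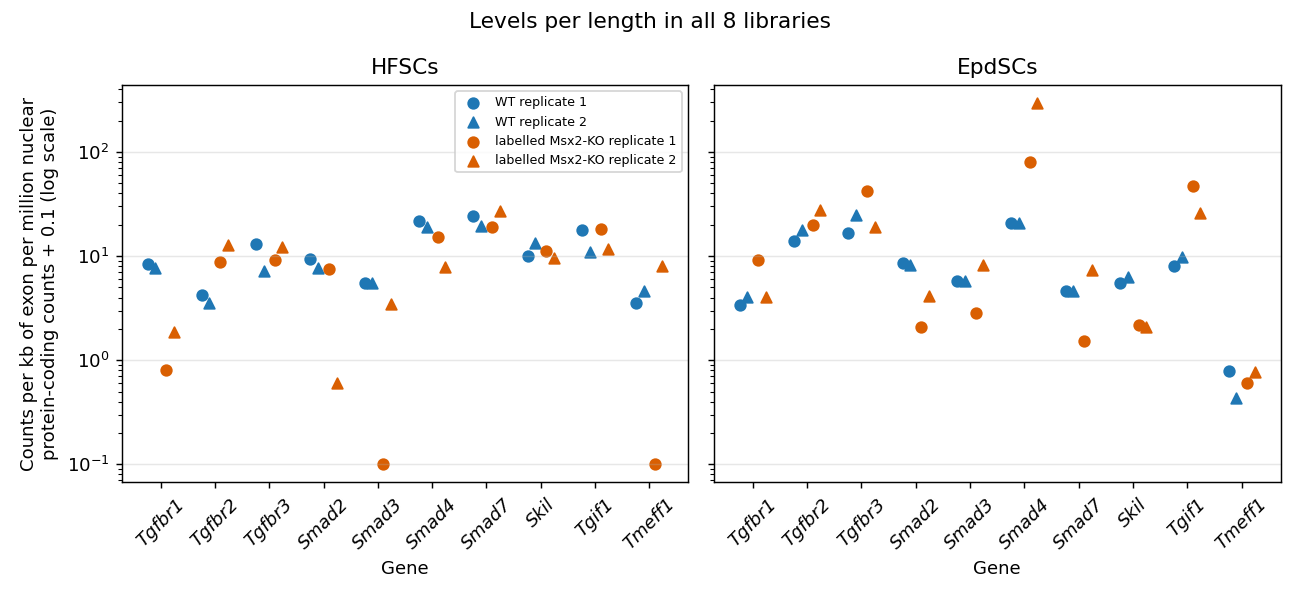
Level of each gene in each of the 8 libraries, as counts per kb of exon per 1000000 nuclear protein-coding counts, plotted with 0.1 added on a log axis, HFSCs on the left and EpdSCs on the right. In HFSCs Tgfbr1 lay above Tgfbr2 in WT and below it in the KO-labelled libraries, and points on the 0.1 line are counts of 0.

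The genes whose pattern over the 8 libraries was most like a member were found by the root mean square difference in log2(value + 1), centred within each cell type, over 5569 genes. For Tgfbr1 these were Sirpa at 0.25, Polr2b at 0.37 and Ppil4 at 0.43, where the root mean square of Tgfbr1 itself was 1.31. Sirpa had 275.3 and 236.7 normalized counts in WT HFSCs and 26.6 and 62.2 in the KO-labelled ones, and 434 and 523 normalized values in WT EpdSCs against 2455 and 999.5. For Tgfbr2 they were Ssh2 at 0.16, Ptgfrn at 0.19 and 9130401M01Rik at 0.20, with 0.66 for Tgfbr2 itself. For Smad2 they were Mpdz at 0.30, Cbfa2t2 at 0.37 and Prxl2c at 0.39, with 1.28 for Smad2 itself. Mpdz had 299.7 and 347.1 normalized counts in WT HFSCs and 269.8 and 24.6 in the KO-labelled ones, so that it shared with Smad2 the low value of replicate 2. All of these genes came from the same libraries as the members.

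The other genes of the pathway were taken from 6 fixed lists of 79 genes in all. In HFSCs 61 of them were tested and 0 were called by edgeR, while DESeq2 called 4 of 70 (3.54% of all genes) and limma-trend 5 of 61 (9.76%). Without KO-labelled replicate 1 edgeR called 25 of 67 and without replicate 2 34 of 66, where 36.6% and 59.1% of all genes were called. Of the 61, 13 had an unadjusted p under 0.05, 4 higher and 9 lower, or 21.3% against 18.1% of all genes. Their median log2 fold change was -0.31. Among the ligands, 5 of 8 were tested. Tgfb2, the ligand of the dermal papilla, had 62.7 and 84.8 normalized counts in WT against 417.3 and 174.8 in the KO-labelled libraries, a log2 fold change of 2.01 ± 0.60 (SE) with an adjusted p of 0.188 by edgeR. Tgfb3 had 130.6 and 147.6 in WT against 459.2 and 305.6 in the others, a log2 fold change of 1.46 ± 0.36 (adjusted p = 0.143). Both KO-labelled libraries were above both WT libraries for each of these ligands, as in 17.5% of all genes. Each was higher with an unadjusted p under 0.05, as were 5.3% of all genes. Tgfb1, named after its values were seen, overlapped between the groups. It had 46.4 and 39.4 in WT against 3.32 and 41.4 in the KO-labelled libraries, a log2 fold change of -0.95.

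Among the genes that hold TGF-β latent in the matrix or release it, 1 of the 10 tested in HFSCs had a positive log2 fold change, where 45.4% of all genes did. Of these 10 genes, 3 had an unadjusted p under 0.05 and all 3 were lower, where 12.8% of all genes were, with a median log2 fold change of -0.60 over the list. Ltbp1, which tethers the latent complex, had 1714 and 1753 normalized counts in WT against 302.4 and 242.2 in the KO-labelled libraries. Its log2 fold change was -2.67 ± 0.25 (SE) with an adjusted p of 0.143 by edgeR, and replicates of each group lay close together. Ltbp1 was called under DESeq2 (adjusted p = 2.85e-08), limma-trend (0.0327), library totals (0.0450) and with each library left out (0.000683 to 0.0102). Ltbp2 had a log2 fold change of -1.74 with an adjusted p of 0.143 by edgeR, and was called under DESeq2 (adjusted p = 0.00889). With a library left out, the value of Ltbp2 ran from -2.30 to -1.36. Thbs1, an activator of latent TGF-β, had a log2 fold change of -0.80. Of the other receptors and co-receptors, Acvr2b, an activin receptor, had 63.5 and 78.9 normalized counts in WT against 0 and 0 in the KO-labelled libraries, at least 18.3-fold lower with the level of 3 counts per library as the floor. Bambi, a decoy receptor, had 23.6 and 57.2 in WT against 0 and 0 in the others, at least 10.4-fold lower on the same floor, or 6.08-fold and 14.7-fold with WT replicate 1 or 2 alone. DESeq2 and limma-trend called both genes. Fst, which encodes the activin antagonist follistatin, had a log2 fold change of -1.33.

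Among the 23 Smad adaptors, partners and turnover genes tested in HFSCs, 3 had an unadjusted p under 0.05. This was 13.0%, against 18.1% of all genes. Zfyve9, the adaptor SARA that brings Smad2 and Smad3 to the receptor, had 563.7 and 664.2 normalized counts in WT against 249.96 and 233.3 in the KO-labelled libraries, a log2 fold change of -1.35 ± 0.25 (SE). Dab2, an endocytic adaptor that links receptors to Smads, had a log2 fold change of -1.47 ± 0.26 and the kinase Hipk2 one of 1.45 ± 0.53. Each had an adjusted p of 0.143 by edgeR except Hipk2, with 0.272, and limma-trend called Zfyve9 and Dab2. Crebbp, with the highest mean value of the list, had a log2 fold change of -0.20. Of the 3 Smads of the BMP branch, 0 had an unadjusted p under 0.05, and Smad5, the highest in mean value, had a log2 fold change of -0.71. Among 11 target genes tested, Snai2 was higher and Tgfbi lower by the unadjusted p. That was 18.2% of the list, against 18.1% of all genes. Tgfbi, named after its values were seen, had 3033 and 3053 normalized counts in WT against 1569 and 1488 in the KO-labelled libraries, a log2 fold change of -0.99. Snai2, a transcription factor gene induced by TGF-β, had 279.4 and 193.3 in WT against 782.2 and 558.1 in the KO-labelled libraries, a log2 fold change of 1.50 ± 0.34 (adjusted p = 0.143). Ccn2, the target with the highest mean value, was not one of them. It had 4203 and 19382 in WT against 3920 and 2572 in the others, with its WT libraries far apart.

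In EpdSCs 64 genes of the 6 lists were tested and 0 were called by limma, as by edgeR on estimated counts. Without KO-labelled replicate 1 limma called 19 and without replicate 2 34, where 37.6% and 63.9% of all genes were called. Of the 64, 20 had an unadjusted p under 0.05, 7 higher and 13 lower, or 31.2% against 35.3% of all genes. Their median log2 fold change was -0.71, close to the -0.64 of all genes. Of the ligands, Tgfb2 had normalized values of 121.3 and 182.1 in WT against 1040.4 and 288.5 in the KO-labelled libraries, a log2 fold change of 1.88 ± 0.84 (SE) with an adjusted p of 0.196. Both were above WT, as in HFSCs and as in 27.8% of all genes in EpdSCs. Tgfb3, named here after its values were seen, had 27.1 and 59.8 in WT against 6.37 and 30.3 in the KO-labelled libraries. Its groups overlapped, with a log2 fold change of -1.44. The activin and inhibin subunits Inha and Inhba were low, at most 55.2 in any library, and had log2 fold changes of -3.71 and -2.93. Of 12 genes of latency and activation, 4 were lower and 1, Itgb6, higher by the unadjusted p. Of all genes, 23.1% were lower and 12.2% higher. Itgb6, named after its values were seen, had 123.5 and 123.3 in WT against 401.1 and 407.8 in the KO-labelled libraries. Ltbp3 had 1046 and 1106 in WT against 179.4 and 175.6 in the KO-labelled libraries, a log2 fold change of -2.59 ± 0.46 (SE) with an adjusted p of 0.0538. Ltbp4 had a log2 fold change of -2.98 ± 0.57 with an adjusted p of 0.0598. Both passed the threshold under a pseudocount of 10, an intensity trend and scaling to nuclear protein-coding counts. The shares of all genes called were then 12.2%, 13.1% and 10.3%. The last setting, chosen after seeing the data, moved the median of all genes by -0.68 and gave adjusted p values of 0.0481 and 0.0459 by limma. Neither passed under library totals, with mitochondrial and ribosomal RNA genes left out, or by edgeR on estimated counts. Ltbp2 was listed at 10.8 and 56.0 in WT and at 0 in both others, at least 8.74-fold lower against a floor of 3 counts per library, or 2.84-fold and 14.6-fold with WT replicate 1 or 2 alone. Itgb8, whose integrin activates latent TGF-β, had a log2 fold change of -2.98. Itgav, its partner subunit, had one of 2.11, with KO-labelled replicate 1 at 19821 and replicate 2 at 3253. The mean value of Itgav was the highest of the list. In WT, however, Ltbp4 was higher, at 1963 and 3559 against 1695 and 2044 for Itgav.

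Of the other receptors in EpdSCs, Acvrl1, a type I receptor best known from endothelium, had a log2 fold change of -3.01 with values of at most 97.5. Acvr1b, the activin type I receptor and the highest of the list in mean value, had one of -0.05. Among 22 Smad adaptors, partners and turnover genes, 3 were higher and 5 lower by the unadjusted p. Of all genes, 12.2% were higher and 23.1% lower. The lower genes of the list were Zfyve9 and, named after their values were seen, Hgs, Usp15, Tgif2 and Hipk2. Zfyve9 had normalized values of 1556 and 1679 in WT against 392.2 and 444.2 in the KO-labelled libraries, a log2 fold change of -1.95 ± 0.46 (SE) with an adjusted p of 0.0818 by limma. It was below WT in both libraries of both cell types. Ppm1a, a phosphatase of Smad2 and Smad3, had 1594 and 1627 in WT against 9772 and 6432 in the KO-labelled libraries, a log2 fold change of 2.30 ± 0.51 (adjusted p = 0.0736). Fkbp1a, which binds the type I receptor and holds it inactive, had a log2 fold change of 2.60 ± 0.70, and Pmepa1, a feedback inhibitor, one of 1.91 ± 0.52. Crebbp had a value of -0.52 and the BMP Smad Smad5 one of -0.08.

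Target genes in EpdSCs went both ways. Of 14 tested, 3 were higher and 1 lower by the unadjusted p, where 12.2% of all genes were higher and 23.1% lower. Junb, an immediate target, had the highest mean value of the list over the EpdSC libraries, through KO-labelled replicate 2. Its normalized values were 1305 and 2365 in WT against 6457 and 29219 in the KO-labelled libraries. The log2 fold change was 2.97 ± 0.96 (SE), with an adjusted p of 0.126 by limma. Tgfbi was above Junb in both WT libraries, at 9405 and 11544, against 6296 and 6806 in the KO-labelled ones (log2 fold change -0.67). Bhlhe40, a transcription factor gene, had a log2 fold change of 2.19 ± 0.54. Ccn2 had 78.0 and 63.5 in WT against 2.55 and 12.1 in the KO-labelled libraries, a log2 fold change of -3.39 ± 0.83 (adjusted p = 0.0854). With 2 libraries against 2, the smallest two-sided p that exact permutation allows is 0.333, and it was not used for single genes.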

How the data were processed

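HFSCs and EpdSCs were analysed apart, since each had its own deposited table and unit, and groups came from the sample labels. The submitters' processing notes name STAR 2.7.3a and Partek, and the paper's methods name GRCm38/mm10 and GENCODE M25. For HFSCs the authors deposited expected counts per gene, without normalization. For EpdSCs the authors deposited a normalized signal, estimated counts divided by 1 factor per library. Further deposited tables hold the authors' own comparisons (ratio, fold change, log2 ratio, p-value and FDR) and were not used. HFSC counts were rounded and tested with edgeR 4.0.16 (quasi-likelihood, TMM, filterByExpr, 14422 genes), and normalized counts are per 6101080 counts. limma 3.58.1 was run on log2(value + 1) of all 16231 EpdSC genes, so fold changes of low genes are understated. Calls needed a Benjamini-Hochberg adjusted p under 0.05 and a fold change over 2. R 4.3.3, DESeq2 1.42.0, Python 3.11.15 and matplotlib 3.10.9 were used, and both tests were run on simulated data. The simulated spread was below the HFSC common dispersion of 0.823, so that check does not cover the HFSC test at the spread of these data. Intervals and floors of 3 counts cover counting error only.

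The members and lists were chosen with earlier results of these data known. All members were named. Of each pathway list, the gene with the highest mean value over the libraries of a cell type was named, without regard to gene length. Up to 4 genes were also named by p, among those with an unadjusted p under 0.05, a fold change over 2 and groups that did not overlap. Of these, 1 gene is not reported here. Likeness was taken over genes with a mean of at least 100 in both tables. Exon lengths, gene types and overlaps came from GENCODE M21, whose coordinates equal those of the files for all members, and promoters from RefSeq. The alternatives were DESeq2, limma-trend, RLE factors, library totals, mitochondrial and ribosomal RNA genes left out, other filters, pseudocounts of 0.1 and 10, an intensity trend, a replicate block and each library left out. Scaling to nuclear protein-coding counts and edgeR on estimated EpdSC counts were chosen after seeing the data. The latter replaced a planned test on recovered whole reads, since only 73.2% to 82.7% of the values under 1000 were whole within 0.02.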

Additional observations from a re-analysis of the deposited data

Results flagged for a closer look

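The libraries labelled Msx2-KO lay all on one side of WT in HFSCs and all on the other side in EpdSCs for 3 of the 10 members and 8 of the 55 other pathway genes tested in both, where 16.5% of all genes tested in both did so. The log2 fold changes were -2.92 in HFSCs and 1.45 in EpdSCs for Tgfbr1, -1.95 and 0.46 for Smad3, and -1.04 and 3.61 for Smad4. Of the other pathway genes named above, they were 1.45 and -1.83 for Hipk2, -0.34 and 2.11 for Itgav, and -0.39 and 2.30 for Ppm1a, and the others were Itgb1, Itgb6, Ldlrad4, Sp1 and Wwp1. The difference between the cell types was not tested, since the tables were normalized separately. When scaled to nuclear protein-coding counts, the groups of Tgfbr1 and Smad3 overlapped in EpdSCs.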

How the results depend on the processing

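In HFSCs, the count of members called stayed at 0 under all settings that kept every library. The count with an unadjusted p under 0.05 was 1 under DESeq2, library totals, mitochondrial and ribosomal RNA genes left out, no filter and the replicate block. With a library left out, the median log2 fold change of the members ran from -0.58 to -0.38. The median log2 fold change of the members moved to -0.74 under limma-trend and -1.17 under library totals, which moved the median of all genes by -0.86. It was -0.087 under nuclear protein-coding totals and -0.081 over the 7 members with at least 10 counts in every library. Scaling to nuclear protein-coding counts moved the median of all genes by 0.22, and turned Tgfbr3 to 0.081, Smad7 to 0.099, Tgif1 to 0.047 and Crebbp to 0.018. With a library left out, Tgfbr3 ran from -0.52 to 0.25, Smad7 from -0.39 to 0.072, Tgif1 from -0.59 to 0.14 and Tmeff1 from -7.93 to 0.75. Of the other pathway genes in HFSCs, DESeq2 called 4 of 70, where 3.54% of all genes were called, and limma-trend 5 of 61 (9.76%). Library totals called 1 of 61 (0.354%) and the block 2 of 61 (1.6%). Of all genes, edgeR called 0 in HFSCs with 2614 at an unadjusted p under 0.05, DESeq2 called 822, limma-trend 1407, library totals 51, the replicate block 231, a minimum of 10 counts in every library 2, and leaving out a library 132 to 9272.

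In EpdSCs, no member was called with a pseudocount of 0.1, library totals, mitochondrial and ribosomal RNA genes left out with TMM, the replicate block, edgeR on estimated counts or nuclear protein-coding totals, 0 in each case. With a library left out, the median log2 fold change of the members ran from 0.77 to 1.31. The median of the members moved to 0.37 under nuclear protein-coding totals. Smad3 turned to -0.26 under nuclear protein-coding totals, and Smad7 to -0.49 there and -0.043 under library totals. Acvr1b turned to 0.10 with RNA genes left out and 0.053 under edgeR, and Smad5 to 0.073 and 0.059. With a library left out, Smad7 ran from -0.51 to 0.95, Acvr1b from -0.59 to 0.49, Crebbp from -1.77 to 0.72 and Smad5 from -0.35 to 0.19. The median of all genes moved by -0.24 under library totals, 0.15 with RNA genes left out, 0.36 under edgeR and -0.68 under nuclear protein-coding totals. Of the 64 other pathway genes tested, an intensity trend called 5, where 13.1% of all genes were called, and a pseudocount of 10 called 4 (12.2%). Nuclear protein-coding totals called 2 (10.3%), the block 1 (7.83%) and a pseudocount of 0.1 also 1 (6.84%). Of all genes, limma called 1518, an intensity trend 2132, edgeR on estimated counts 0, and leaving out a library 0 to 10376. The cause of these moves was not tested.

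The labels do not say whether libraries with the same replicate number were paired. The deviations of same-numbered libraries correlated at -0.06 in HFSCs and -0.02 in EpdSCs. These values show no shared replicate effect across genes, but do not settle whether the libraries were paired. With the replicate block, 0 members were called in either cell type, and the HFSC median moved to -0.75. Ltbp1 and Ltbp2 were called in HFSCs with the block, with adjusted p values of 0.00104 and 0.0371 by edgeR. The counts of 0 for Smad3 and Tmeff1 came from KO-labelled replicate 1, the HFSC library with the most counts, 11016700. That library also detected the fewest genes of the HFSC libraries, 11409, and mitochondrial ribosomal RNA took 49.4% of its counts.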
